A study of Mus musculus with 2 samples.

Results

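The 8 keratin genes that mark the layers of the urothelium, the lining of the ureter and bladder, were followed in embryonic mouse ureters cultured with and without NOGGIN. Members were chosen by the gene name of their probes: Krt5, Krt14 and Krt15 as keratins of basal cells, Krt7, Krt8, Krt18 and Krt19 as keratins of simple epithelia, and Krt20 as the keratin of superficial cells. All 8 were measured, out of 22316 genes or unnamed features. They have 10 of the 39429 probes of the array, 2 each for Krt5 and Krt8 and 1 for each of the others, and 9 of these 10 passed the filter on dim probes.

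Ureters of wild-type NMRI embryos of mixed sex at stage E13.75 were cultured for 18 h, either with NOGGIN at 10 µg/ml or, as the control, with none added. NOGGIN, an extracellular antagonist, captures bone morphogenetic proteins (BMPs) before they reach their receptors. Whole ureters were used, so urothelium, mesenchyme and other cells were read together, and the labels do not say how many ureters were pooled or whether the samples came from separate litters. Total RNA (200 ng per sample) was read on 2 two-colour arrays, each holding 1 control and 1 NOGGIN sample, with the dyes exchanged between the arrays. In such bulk samples fewer cells of a type and less RNA per cell cannot be told apart. Each of the 5 uroplakin genes, which encode plaque proteins of the urothelium, was well above background in all 4 channels. So were 19077 of all 22316 genes, so this alone does not show how much urothelium each channel held.

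Keratins form filaments only as pairs of a type II keratin (here Krt5, Krt7 and Krt8) with a type I keratin (here Krt14, Krt15, Krt18, Krt19 and Krt20). Basal cells of stratified epithelia, which sit on the basement membrane and include progenitors, use KRT5 with KRT14 or KRT15. Simple, single-layered epithelia use KRT8 with KRT18 or KRT19, often with KRT7, and the urothelium keeps these in most of its layers. KRT20 appears late, in the superficial cells that face the urine and carry the uroplakin plaques. Basal, simple and superficial are used below as names of gene groups. Whether these ureters already held cells of each layer was not tested.

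The direction of every ratio is that of the NOGGIN-labelled channel over the control-labelled one, as the dyes in the labels give it, and the sources do not settle this direction. By those dyes the BMP target Id1 was higher in the NOGGIN-labelled channel, by 2.14 ± 0.09 on the log2 scale (SD, n = 2). At most probes the authors' deposited table has the opposite sign: its values correlated with these ratios at -0.905 on array 1 and -0.952 on array 2, across 29645 probes, which are not independent replicates. Sample titles set NOGGIN against control. Should the dyes in the labels be crossed, all signs below turn, while the sizes and the contrast between keratins stay.

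The probes of the members on which the results turn are shown first, to let a reader see what was hybridised. Only the last 30 of the 60 bases of each probe are given, in the orientation of the file, and capitals mark the polyadenylation signal hexamer where these bases hold it.
Krt20: gggttcagttaagagcaaaactagcctgga
Krt15: gtggtttcttcccgtaagagagaaatctaa
Krt14: aaccgccagatccgcaccaaggtcatggat
Krt5: tgacttcctccagagtctgtccAATAAAat
Krt5 second probe: ggatccgttgtttgaacagtacattaacaa
Krt8: aaAATAAAgcctcagctggctctgtcaact
By the positions in the files (build mm9, minus strand), the Krt20 probe lies at chr11:99289776-99289835, the Krt15 probe at chr11:99993331-99993390 and the Krt14 probe at chr11:100064683-100065288. The 60 bases of the Krt14 probe cover 606 positions, so its match to the genome is interrupted. The Krt5 probes lie at chr15:101537514-101537573 and chr15:101542056-101542115. The brighter Krt8 probe lies at chr15:101827138-101827197 and the other at chr15:101828827-101828886, both on the minus strand. The remaining probes lie at chr15:101253718-101253777 (Krt7, plus strand), chr15:101862341-101862400 (Krt18, plus) and chr11:100002392-100002451 (Krt19, minus). Which exon or UTR each probe falls in was not analysed here. Keratins form a large family of related genes, and whether a probe also reads a relative was not tested.

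The basal and superficial keratins were lower with NOGGIN by the labels on each of the arrays, while the simple keratins were mixed: Krt7 was below 0 on both arrays, Krt8 and Krt18 were above 0 on both, and Krt19 differed in sign. A fold rule asked for a change of 1.5-fold or more with equal sign on each array. By it 2 of the 8 members were lower (Krt15 and Krt20), against 1.25% of all genes, and 0 were higher, against 0.941% (2.19% of all genes in either direction). None passed 1.5-fold with opposite signs, against 0.237% of all genes. Array 1 alone gave 3 lower members (Krt14, Krt15 and Krt20) and array 2 alone gave 4 (Krt5, Krt7, Krt15 and Krt20), while the scanner's processed signals gave 4 on both arrays and median centring gave 1 (Krt14). Below 0 on both arrays at any size were 5 of 8 (Krt5, Krt14, Krt15, Krt7 and Krt20), against 23.3% of all genes, and above 0 on both were 2 (Krt8 and Krt18), against 20.4%. The median of the 3 basal members was -0.63 on array 1 and -0.76 on array 2, that of the 4 simple members was 0.25 and -0.11, and that of all genes was 0.02 and -0.05. With limma and Benjamini-Hochberg adjustment over all 22316 genes, 0 genes (0%) and 0 members had an adjusted p under 0.05. An unadjusted p under 0.05 was met by 1347 genes (6.04%) and by 4 of the 8 members (Krt5, Krt14, Krt15 and Krt20). These 4 were all on the lower side, which held 3.36% of all genes, and 0 members were on the higher side, which held 2.68%. With 2 arrays an exact permutation of signs cannot give a two-sided p under 0.5, so no difference between layers was tested. The p-values rest on a spread between the 2 arrays that limma moderates over all genes (4.34 prior against 1 residual degrees of freedom). They reach no further than these samples.

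**Figure D1:**
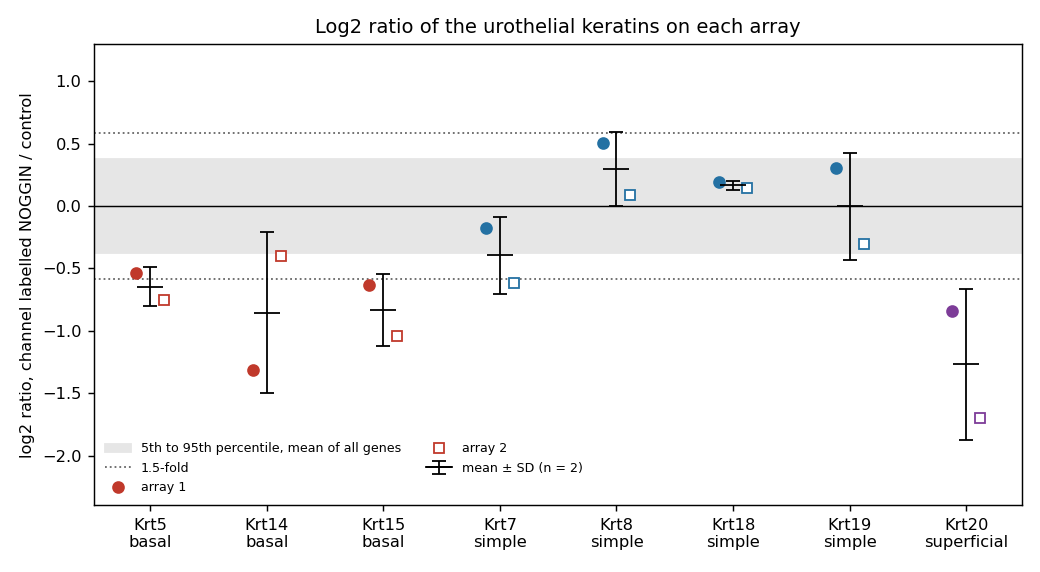
Log2 ratio of the NOGGIN-labelled channel over the control-labelled channel (y axis) for each keratin (x axis), on array 1 (filled circles) and array 2 (open squares), with the mean ± SD of both in black. The grey band spans the 5th to 95th percentile of the mean ratios of all genes (-0.37 to 0.38) and the dotted lines mark 1.5-fold; Krt15 and Krt20 lie below the lower line on both arrays, while Krt8, Krt18 and Krt19 do not reach either line.

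Krt20, the keratin of superficial cells, had the largest mean difference of the 8. Its normalized log2 level was 9.74 in control 1 and 10.20 in control 2, and 8.90 in NOGGIN 1 and 8.50 in NOGGIN 2. Both controls lay above both NOGGIN channels, by at least 0.84. The log2 ratio was -0.84 on array 1 and -1.70 on array 2, a mean of -1.27 ± 0.61 (SD, n = 2), or 2.41-fold, with an adjusted p of 0.221 (limma; unadjusted p = 0.00288). That mean is at the 0.341th percentile of all genes. All 8 of its spots, 4 on each array, were below 0. They ran from -1.20 to -0.61 on array 1 and from -1.88 to -1.54 on array 2, so the spots of the 2 arrays did not overlap and the arrays differed by more than the spots within either.

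The scanned signals of Krt20 show what the correction for dye does to these values. On array 1, where NOGGIN was green, its mean scanned signals were 553 (NOGGIN) and 589 (control), over local backgrounds of 28.1 and 66.4. On array 2, where NOGGIN was red, these were 303 and 1572. The scanned log2 ratios of -0.07 and -2.39 became -0.84 and -1.70 after background correction and loess. For some other members the correction changed the side. On array 1 the scanned ratios of Krt5 (0.0005), Krt15 (0.32) and Krt7 (0.70) became -0.54, -0.63 and -0.17. On array 2 those of Krt8 (-0.13) and Krt18 (-0.12) became 0.09 and 0.14. Before correction the median log2 red over green of all spots was -0.41 on array 1 and -0.20 on array 2. Any other dye-linked part and the difference between the arrays cannot be told apart with 2 arrays.

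Krt15, a type I keratin of basal cells, passed the 1.5-fold rule too. On the log2 scale its level was 12.46 in control 1 and 12.61 in control 2, against 11.84 in NOGGIN 1 and 11.57 in NOGGIN 2. The groups did not overlap. The log2 ratio was -0.63 on array 1 and -1.04 on array 2, a mean of -0.83 ± 0.29 (SD, n = 2), or 1.78-fold, with an adjusted p of 0.289 (limma; unadjusted p = 0.00502). The value on array 1 is just past the threshold of 0.585, and its 4 spots ran from -0.84 to -0.30, across it.

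Krt5, the type II partner of the basal pair, was lower on both arrays and missed the 1.5-fold rule on array 1. Normalized log2 levels were 8.51 and 8.67 in the controls and 7.97 and 7.92 in the NOGGIN channels, with no overlap. The log2 ratios of -0.54 and -0.76 gave a mean of -0.65 ± 0.16 (SD, n = 2), with an adjusted p of 0.396 (limma). Of the 3 basal members it differed least between the arrays. The second Krt5 probe was not well above background: at most 1 of its 4 spots was, in any channel. It was filtered out, and its ratios of -0.31 on array 1 and 0.07 on array 2 were not used. Krt5 therefore rests on 1 probe, whose scanned signals were 203 to 493 in the 4 channels.

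Krt14, the type I partner of Krt5, was lower on both arrays but unevenly. Its log2 level was 9.51 in control 1 and 8.85 in control 2, against 8.20 in NOGGIN 1 and 8.45 in NOGGIN 2. The 2 controls were farther apart than the 2 NOGGIN channels, and the groups did not overlap. The log2 ratio was -1.31 on array 1 and -0.40 on array 2, a mean of -0.86 ± 0.65 (SD, n = 2), with an adjusted p of 0.523 (limma). Krt14 was the only member of the 5 on the lower side with the larger size on array 1, since Krt5, Krt15, Krt7 and Krt20 all had the larger size on array 2. All 8 spots of each basal member were below 0.

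**Figure D2:**
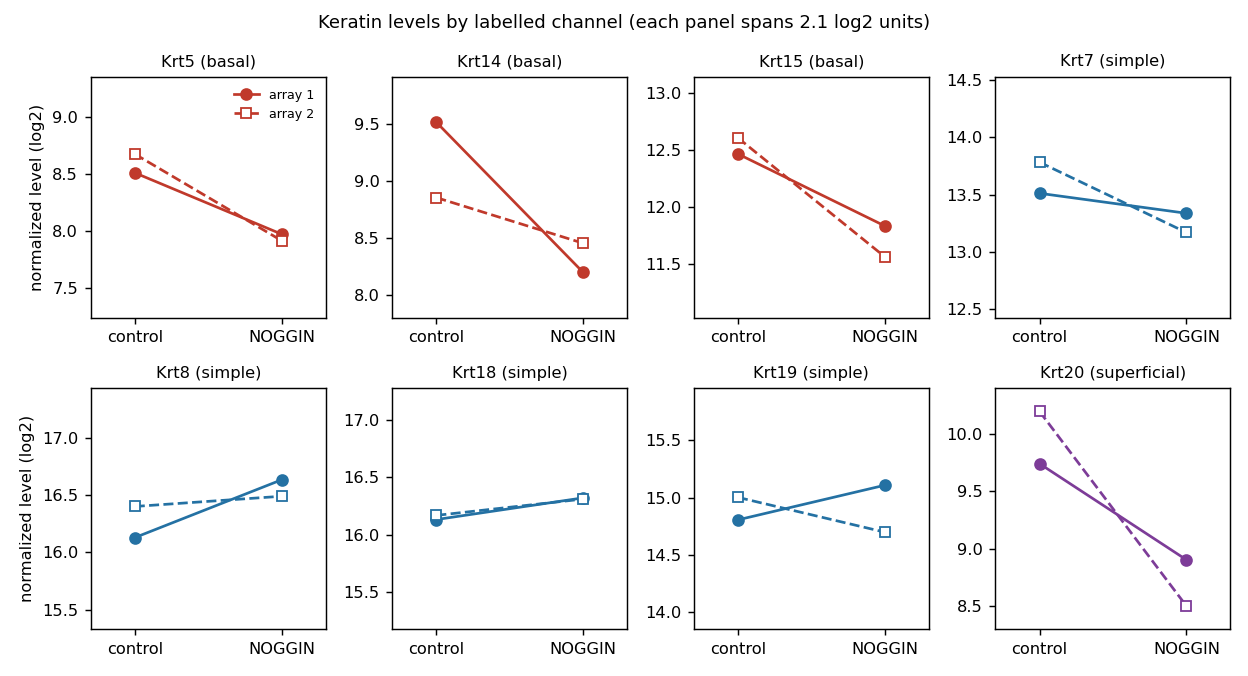
Normalized log2 level (y axis, after loess and quantile normalization of mean intensity) in the control-labelled channels and NOGGIN (x axis), joined within array 1 (filled circles, solid line) and array 2 (open squares, dashed line), for each keratin; panels start at different levels and span the same 2.1 log2 units. Lines of Krt5, Krt14, Krt15, Krt7 and Krt20 go down on both arrays, those of Krt8 and Krt18 go up by 0.51 or less, and those of Krt19 run opposite ways.

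Among the simple keratins, Krt8, the type II partner of Krt18 and Krt19, had slightly higher levels in the NOGGIN-labelled channel. Its log2 level was 16.13 and 16.40 in the controls and 16.64 and 16.49 in the NOGGIN channels. The groups lay 0.09 apart at the closest. The log2 ratios of 0.51 and 0.09 gave a mean of 0.30 ± 0.29 (SD, n = 2), about the size of the spread between the arrays, with an adjusted p of 1.00 (limma). The second Krt8 probe had 0.33 and 0.16, the same sign on both arrays. By these means Krt8 was on the other side from Krt5, the type II keratin of the basal pair, on both arrays. On array 2, however, the 3 spots used for Krt8 ran from -0.04 to 0.27, with 1 below 0. Spots of the second Krt8 probe ran across 0 on each array.

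Krt18, the type I partner of Krt8, was the most even of the 8 between the arrays. Its log2 level was 16.13 and 16.17 in the controls, and 16.32 and 16.31 in the NOGGIN channels. The log2 ratios of 0.19 and 0.14 gave a mean of 0.17 ± 0.03 (SD, n = 2), which limma's test placed at an unadjusted p of 0.342. The SD of 2 arrays is itself imprecise: the 4 spots on array 1 ran from -0.23 to 0.46, a wider range than that gap between arrays.

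Krt19, a small type I keratin of simple epithelia, changed sign between the arrays. Its log2 level was 14.81 in control 1 and 15.003 in control 2, and 15.11 in NOGGIN 1 and 14.70 in NOGGIN 2, so the groups overlapped. The ratios of 0.30 and -0.30 gave a mean of -0.001 ± 0.43 (SD, n = 2). Red over green was -0.30 on both arrays. A dye effect and a difference between the samples of the arrays cannot be told apart here.

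Krt7, a type II keratin of ductal and urothelial cells, stood between the groups. Its log2 level was 13.51 and 13.78 in the controls and 13.34 and 13.17 in the NOGGIN channels. The ratios of -0.17 and -0.61 gave a mean of -0.39 ± 0.31 (SD, n = 2), with an adjusted p of 0.983 (limma), and all 7 of its spots were below 0. On array 2 Krt7 was lower than Krt14 (-0.61 against -0.40), so on that array the basal and simple ratios overlapped. On array 1 they did not, with basal ratios from -1.31 to -0.54 and simple ratios from -0.17 to 0.51.

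**Figure D3:**
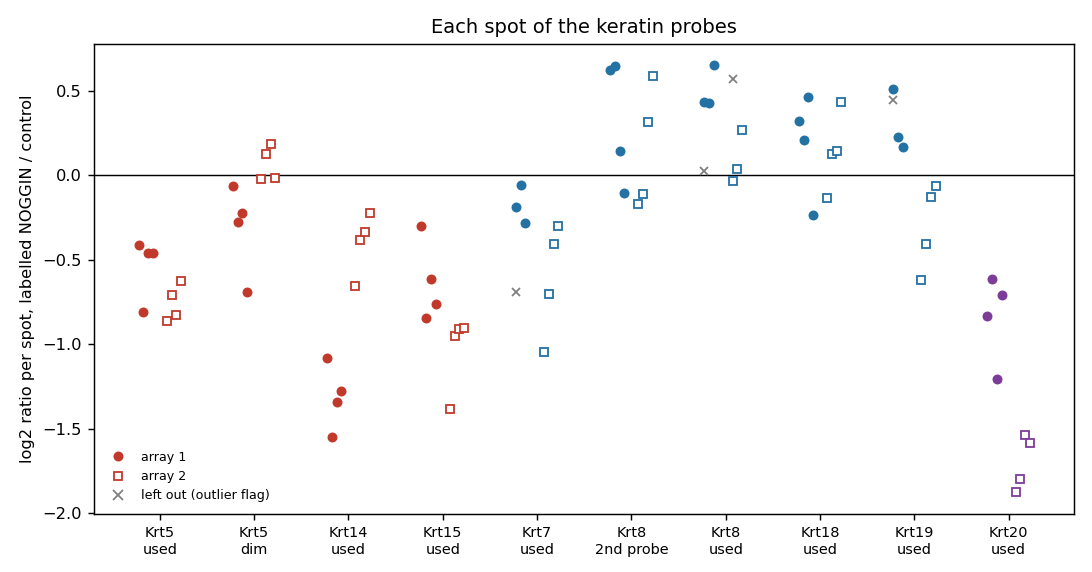
Log2 ratio of each spot (y axis) for the 10 keratin probes (x axis), on array 1 (filled circles) and array 2 (open squares); grey crosses are spots left out for an outlier flag. Each of the 4 spots per array of Krt5 (used probe), Krt14, Krt15 and Krt20 lies below 0, while 2 of the 8 spots of the dim Krt5 probe, not well above background, lie above 0.

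Ordered by mean log2 ratio the members ran Krt20 (-1.27), Krt14 (-0.86), Krt15 (-0.83), Krt5 (-0.65), Krt7 (-0.39), Krt19 (-0.001), Krt18 (0.17) and Krt8 (0.30). In each pair of neighbours the difference is smaller than the larger of their SDs, so the order between neighbours is not resolved. The median of the basal members was below that of the simple members by -0.87 on array 1 and by -0.65 on array 2, and Krt20 was below the simple median by -1.09 and -1.59. In the 4 labelled channels, NOGGIN levels lay below both controls for 5 of the 8 members, against 17.9% of all genes, and above both for 2 (Krt8 and Krt18), against 14.3%.

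The authors' deposited table, from the same arrays, sets Krt7 with the basal keratins and Krt20 and sets Krt8 and Krt18 on the other side. Its signed fold changes on arrays 1 and 2 were 2.15 and 3.51 for Krt20, 1.53 and 2.05 for Krt15, 2.43 and 1.66 for Krt14, and 1.78 and 1.89 for the bright Krt5 probe. Krt7 had the same sign in the authors' deposited table, with 1.21 and 1.62. In the authors' deposited table Krt8 (-1.31 and -1.19 for the brighter probe) and Krt18 (-1.22 and -1.05) had the opposite sign to these, and Krt19 had -1.22 and 1.16. The dim Krt5 probe had 1 and 1, which is no change. The sign of the deposited table runs against the dye labels as stated above.

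Start regions from the RefSeq promoter table are shown for the superficial member Krt20, for Krt5 as 1 basal member, and for the partners Krt8 and Krt18, to set both sides of the ratios side by side. Of the 8 members 6 have an entry (build GRCm38.p6); Krt15 and Krt19 do not. Each sequence is the 150 bases before the annotated start, on the gene's strand.
Krt20: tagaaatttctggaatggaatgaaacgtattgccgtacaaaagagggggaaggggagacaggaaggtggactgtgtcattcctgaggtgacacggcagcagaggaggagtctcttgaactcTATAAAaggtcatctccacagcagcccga
Krt5: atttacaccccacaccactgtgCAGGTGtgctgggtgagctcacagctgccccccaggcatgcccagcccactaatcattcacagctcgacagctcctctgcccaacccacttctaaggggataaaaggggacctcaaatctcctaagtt
Krt8: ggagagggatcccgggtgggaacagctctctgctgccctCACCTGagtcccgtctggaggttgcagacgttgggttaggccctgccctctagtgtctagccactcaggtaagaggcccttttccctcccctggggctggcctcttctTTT
Krt18: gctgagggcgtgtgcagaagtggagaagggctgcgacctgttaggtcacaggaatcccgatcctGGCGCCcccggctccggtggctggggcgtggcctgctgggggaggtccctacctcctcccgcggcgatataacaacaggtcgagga
They lie in GRCm38.p6 at chr11:99438154-99438303 (Krt20, minus strand), chr15:101712906-101713055 (Krt5, minus), chr15:102004343-102004492 (Krt8, minus) and chr15:102028066-102028215 (Krt18, plus). Capitals mark matches, on either strand, to the TATA box TATAAA, the GC-rich element GGCGCC bound by SMAD1 and SMAD5, the E-box CACCTG and the AP-1 site TGACTCA. In the whole 300-base windows of that table, which reach past the start, TATAAA was found in 2 of the 6 members, Krt20 (29 bases before the start) and Krt8 (across the start, so that only its first bases show), against 13.6% of 32851 promoters. GGCGCC was found in Krt18 alone (86 bases before the start), against 11.9% of promoters, and CACCTG in Krt5, Krt7, Krt8 and Krt18, against 20.2%. TGACTCA was found in none, against 5.2%. A match describes letters and is no evidence of binding.

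Other keratins were set beside the members. Of 16 further keratins of stratified epithelia 13 were measured, with 1 at least 1.5-fold lower on both arrays, 0 higher and 12 neither, and a median log2 ratio of -0.11 against -0.01 for all genes. The 1 was Krt17, a type I keratin of basal and stressed epithelial cells, with -1.54 on array 1 and -1.89 on array 2, a larger mean (-1.72 ± 0.25, SD, n = 2) than any of the 8 members and an adjusted p of 0.100 (limma). Krt4, a type II keratin of mucosal epithelia, had -0.41 and -0.74 but was not well above background in every channel. Krt6a, its relative of activated epithelia, had -0.53 and -0.10, and the skin keratin Krt1 had 0.71 and -0.15. Of 23 hair and root sheath keratins, which mark no cell of the ureter, 9 were measured and 0 passed the fold rule in either direction, with a median of -0.07. Still, 6 of the 9 were well above background in every channel. Krt85 had a mean log2 intensity of 13.07, against 12.12 for Krt15. Which transcripts these probes read was not tested.

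Among 7 further keratins and filament partners of simple epithelia, 1 was higher and 1 lower by the fold rule. Krt23, a type I keratin of simple epithelia, had 1.06 and 1.07, a mean of 1.07 ± 0.01 (SD, n = 2). That is the opposite side from Krt20. Eppk1, which encodes the keratin-binding cytolinker epiplakin, had -0.87 and -0.97, and its second probe had a mean of -0.98. The intermediate filament gene Vim, a marker of mesenchyme, had -0.27 and 0.07. The list's median was 0.03.

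**Figure D4:**
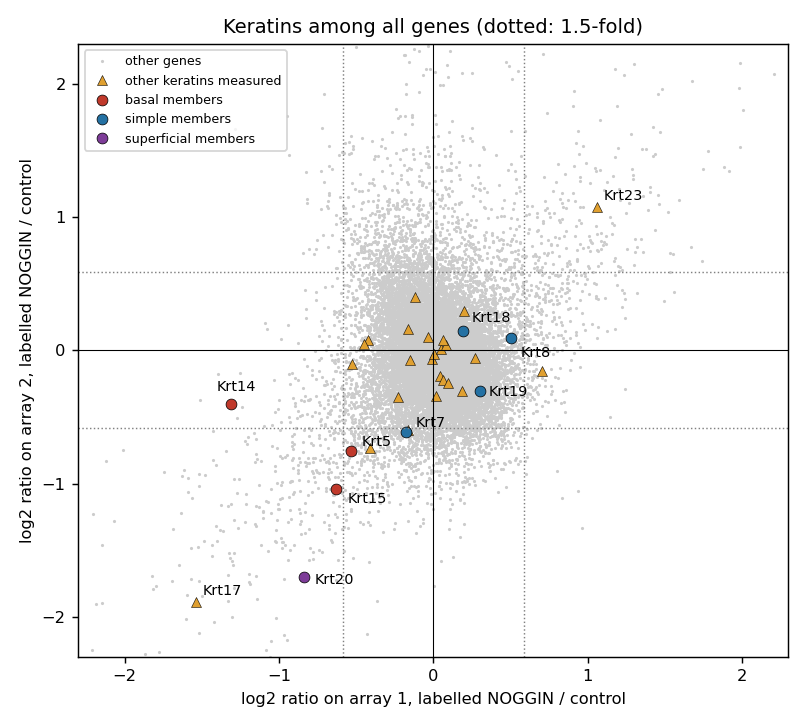
Log2 ratio on array 1 (x axis) against array 2 (y axis), both as the NOGGIN-labelled channel over control, for the 8 members (circles coloured by layer), 25 other measured keratins (triangles) and all other genes (grey; 72 genes lie outside the axes). Krt17, Krt20 and Krt15 lie past 1.5-fold (dotted) at lower left and Krt23 at upper right, while most other keratins lie near the centre.

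Genes that anchor keratin filaments showed small values. Of 21 desmosome and hemidesmosome genes 17 were measured and 0 passed the fold rule, and their median was -0.10. On both arrays 8 of the 17 were below 0 and 3 were above 0, against 23.3% and 20.4% of all genes. The 3 were Lamb3 (0.32 and 0.23), Perp (0.26 and 0.20) and Pkp3 (0.08 and 0.10). Col17a1, Itgb4 and Pkp1, among those with the largest absolute means, were on the lower side on both arrays and missed the rule. Col17a1, a transmembrane collagen of the hemidesmosome, the junction by which basal cells hold the basement membrane, had -0.18 and -0.77. Itgb4, the integrin chain of that junction, had -0.32 and -0.58, and the desmosomal plakophilin Pkp1 had -0.11 and -0.74.

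Markers of differentiation and of basal identity did not follow the keratins as 1 block. Of 15 urothelial transcription factors 3 were higher and 1 lower by the fold rule, with a median of 0.23. Pparg encodes a nuclear receptor with a role in urothelial maturation and had 1.78 and 1.5. The SOX factor Sox9 had 1.2 and 1.21, Ovol1, a repressor of epithelial progenitor genes, had 0.64 and 1.08, and Sox2 had -0.86 and -1.31. Trp63, which encodes the p63 factor that defines basal cells and was picked after its value was seen, had -0.20 and 0.15, unlike the basal keratins. Of 5 uroplakins, the plaque proteins of the superficial cells that KRT20 also marks, 1 was higher by the fold rule and 0 were lower. The 1 was Upk3b (0.92 and 0.86), which is also on the list of mesothelial markers below. Upk1a had 1.23 and 0.43, Upk2 had 0.58 and 0.13, Upk3a had 0.25 and -0.10, and Upk1b had 0.05 and -0.37. Of all 5, given here in full, 0 were below 0 on both arrays, against 23.3% of all genes. Above 0 on both were 3, against 20.4%. Krt20 was below 0 on both, but with 5 genes a difference from these shares was not tested.

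Markers of epithelium and of other cells in the ureter were read beside the keratins. Of 14 pan-epithelial markers 2 were lower by the fold rule and 0 were higher, with a median of -0.23, led by the cadherin Cdh3 (-1.99 and -2.37) and the tight junction gene Cldn3 (-1.13 and -1.17). Their summed normalized intensity was 179475 and 178943 in the control-labelled channels and 125507 and 122693 in those labelled NOGGIN. All 14 were above background in every channel, as were 19077 of all 22316 genes. Not all epithelial sums were lower in NOGGIN channels. The uroplakins had 16498 and 21724 in control and 22507 and 21455 in NOGGIN channels. The 4 simple members had 183863 and 207180 against 229371 and 209227. For the 3 basal members these were 6748 and 7101 against 4201 and 3625. The cadherin Cdh1 had -0.21 and -0.75, and Prom1, a membrane protein of epithelial cells, had -0.17 and -0.65, with -0.11 as the mean of its second probe. Mesothelium, which also carries simple keratins, was read by 6 of 8 markers, with 2 lower, 1 higher and a median of -0.40; their sums were 11836 and 12930 in control and 7504 and 7830 in NOGGIN channels. Wt1 had -0.91 and -0.89, and Lrrn4 had -0.85 and -0.69. Bnc1 had -0.48 and -0.42 but was not well above background in every channel. The higher 1 was Upk3b, which the uroplakin list also holds. The part of either cell type in the keratin values was not tested.

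Ureteric mesenchyme and smooth muscle markers had a median of -0.58, with 3 of 12 lower and 1 higher by the fold rule, and sums of 759888 and 697110 in control and 479280 and 525791 in NOGGIN channels. Of 9 collecting duct and bud tip markers 2 were lower, Wnt11 (-0.67 and -0.97) and Wnt9b (-0.70 and -0.67), with a median of -0.01. Endothelial (5 of 5 measured), blood cell (5 of 7) and skin markers (6 of 8) had 0 past the fold rule in either direction, with medians of 0.17, 0.03 and -0.02. The skin keratins Krt1 and Krt10 were above background in every channel. The part of these cell types in the keratin values was not tested.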

How the data were processed

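Per the file headers, the deposited scanner output gives an intensity for each spot, and the submitters' processing notes name Agilent Feature Extraction 10.7.3.1. The mean signals and local backgrounds used here carry no normalization. Per the file headers, the software had already removed background and dye bias from its own processed signals and from the deposited log10 ratio. The authors' deposited table gives a score per probe, a signed fold change by its values; how the authors normalized it is unknown here.

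Using limma 3.58.1 in R 4.3.3, backgrounds were corrected by normexp (offset 50), then loess was applied within arrays, weighting control spots 0. Control and outlier-flagged spots were left out. Saturated spots numbered 0. Each probe's 4 spots were averaged. Probes passed where the majority of spots exceeded background clearly in 1 or both channels of each array (29645 of 39429), and the brightest stood for each gene; accessions of 28328 probes matched RefSeq. Levels per channel were taken after quantile normalization of mean intensity (Aquantile). Well above background were 65.3% to 76.9% of probes per channel. lmFit and eBayes used 1 coefficient, the label of the red channel, with 1 residual degree of freedom. Each array is 1 replicate, and their number limits the precision.

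Members and lists were chosen with earlier results of these data known. Named genes are the members and up to 4 genes of each list with the largest absolute mean log2 ratio, unless stated; 1 such gene is not reported here. Simulated ratios were used to test the model. Figures were drawn with matplotlib 3.10.9.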

Additional observations from a re-analysis of the deposited data

How the results depend on the processing

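Over the 12 other settings on both arrays, 7 of the 8 keratins kept the sign of their mean; Krt19, near 0, turned to 0.00093 with no background correction, 0.0054 with local background subtracted, 0.059 on processed signals, 0.017 when flagged spots stayed in, 0.030 under scale normalization and 0.039 on the authors' values. The authors' values were turned in sign here, to run the same way as the other settings. Krt20 ran from -1.46 to -1.23, Krt15 from -0.87 to -0.81, Krt14 from -1.04 to -0.83 and Krt5 from -0.89 to -0.61. The basal median minus the simple median ran from -1.0 to -0.90, and from -0.87 to -0.65 on single arrays. The basal median ran from -0.76 to -0.63 on single arrays and the simple median from -0.11 to 0.25. The median of the 8 members was -0.52, -0.67 on processed signals and -0.65 on the authors' values so turned, and from -0.51 to -0.36 on single arrays.

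The 2 members lower by the fold rule became 4 on processed signals and on the authors' values so turned (Krt5 and Krt14 joined), 1 (Krt14) when arrays were only centred on their medians, 0 at 2-fold, and 3 to 4 on single arrays. No member was higher in any setting on both arrays, and none passed an adjusted p of 0.05 in the 11 other settings that give a test. Over all genes, the 488 past the fold rule became 897 with local background subtracted, 840 on processed signals, 149 at 2-fold and 961 to 2631 on single arrays. The 0 past an adjusted p of 0.05 became 141 with a trended and robust variance, 114 when arrays were only centred, 97 where both channels had to exceed background, 35 without any background correction and 22 when flagged spots stayed in. The causes were not tested. Each ratio is taken within an array, so the fit is already paired by array. Signal over background limits Krt5, whose second probe was too dim to use. It also limits Krt14, whose 1 probe had scanned signals of 297 to 573 in the 4 channels.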
